A study of Oryza sativa with 12 samples.

Results

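The nup1 mutant of rice held a small group of genes whose difference from wild type turned round between 2 neighbouring anther stages. A gene was chosen by its measured values: it had to be listed in both deposited tables, with a mean log2(FPKM + 1) in the 3 nup1 libraries at least 1 above that of the 3 wild-type libraries at stage 10, and at least 1 below it at stage 11. FPKM is the number of fragments scaled to the length of the transcript and to the size of the library, and a difference of 1 on the log2 scale is a doubling of FPKM + 1, which understates the change of genes at low FPKM. Of 1450 genes listed in both tables, 62 met these conditions, and 60 are described here, because the rule leaves out LOC_Os08g03682 and LOC_Os09g32020. Because these values chose the genes, each difference between the genotypes below is a description, with no test.

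Anthers came from nup1 plants and from wild-type plants at stage 10, and again from both genotypes at stage 11, in 4 groups of 3 biological replicates. The mutated locus, the allele and the cultivar behind nup1 are not given in the labels used here, and no treatment or age is named. The series title links the work to an oxidative burst, to Ubisch bodies and to male sterility. Poly(A) RNA was sequenced, so each value is an average over all cells of the anther, in which fewer cells of a type and less RNA per cell cannot be told apart.

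As background, the tapetum is the innermost wall layer of the anther, and it feeds the developing microspores. It makes the precursors of sporopollenin, the tough polymer of the pollen wall, and carries them to the locule with the help of small granules on its surface, the Ubisch bodies. In rice the microspores are vacuolated at stage 10, pollen mitosis follows at stage 11, and the tapetum breaks down by programmed cell death over this part of development. Many tapetal and pollen transcripts are abundant only for a short time, so the stage at which a transcript is present is part of its pattern.

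The deposited tables name genes by locus identifier alone. None of the 60 identifiers (0 of 60) matched an entry of the reference gene table used here, so no name or role is given to any of them, and the genes are ordered below by their course in wild type.

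The label of the tissue was checked against loci paired with symbols from recall. Of those named in this paragraph, each lies on the chromosome that the reference gene table gives for its symbol, except LHCB, a symbol it lacks. RTS, RAFTIN1 and OsC6, genes of the tapetum and its secretions, averaged 15.2, 377 and 807 FPKM in nup1 and 4557, 2231 and 6991 FPKM in wild type at stage 10. OsC4, another locus of that list, went the other way, with 838 FPKM in nup1 and 335 FPKM in wild type at stage 10 and 23.0 FPKM in nup1 and 0.669 FPKM in wild type at stage 11. The 5 listed loci of this list summed to 1936 to 2521 FPKM per library in nup1 and 13213 to 17077 FPKM in wild type at stage 10, and to 424 to 1069 FPKM in nup1 and 4493 to 5812 FPKM in wild type at stage 11. The bHLH regulators TDR and EAT1 averaged 30.7 and 3.50 FPKM in nup1 and 87.9 and 34.3 FPKM in wild type at stage 11, whereas PTC1, another tapetum regulator, averaged 29.0 FPKM in nup1 and 1.12 FPKM in wild type at stage 10. The 3 photosynthesis loci listed at stage 10 summed to 265 to 342 FPKM per library in nup1 and 205 to 367 FPKM in wild type. These sums join opposite directions. LHCB averaged 249 FPKM in nup1 and 106 FPKM in wild type. RBCS loci LOC_Os12g19381 and LOC_Os12g19470 averaged 40.4 and 22.2 FPKM in nup1 and 109 and 46.9 FPKM in wild type. The 3 listed at stage 11, a different set without LHCB, summed to 407 to 608 FPKM in nup1 and 701 to 1324 FPKM in wild type. Of 4 floral organ loci, 0 were listed at stage 10 and MADS13 at stage 11, with 5.02 FPKM in nup1 and 31.8 FPKM in wild type on average. The part of other tissues in the results was not tested. Over the 1450 genes, the library medians of log2(FPKM + 1) lay at 2.76 to 2.92 in nup1 and 3.10 to 3.38 in wild type at stage 10, and at 2.40 to 2.77 in nup1 and 3.21 to 3.38 in wild type at stage 11.

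On the scale of the rule, the differences of the 60 genes were smaller in size at stage 10 than at stage 11. At stage 10, nup1 minus wild type ran from 1.01 to 3.39 on the log2 scale with a median of 1.36, where the median over all 1450 genes was -0.84. At stage 11 it ran from -5.85 to -1.02 with a median of -1.72, where the median over all 1450 genes was -1.11. The stage 11 difference was the larger in size in 42 of the 60 genes. Both differences reached 2 in 5 genes and 1.5 in 17 genes. The difference at stage 10 reached 2 in 9 genes, and that at stage 11 reached -2 in 19 and -3 in 5. Centring each library on its own median lowered each stage 10 difference by 0.20 and raised each stage 11 difference by 0.45. The extent of the contrast between the stages thus depended on the scaling. The medians used for centring were those of called genes only. Centring left 31 genes that met the rule, though the direction at each stage was the same in 60 of 60.

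**Figure D1:**
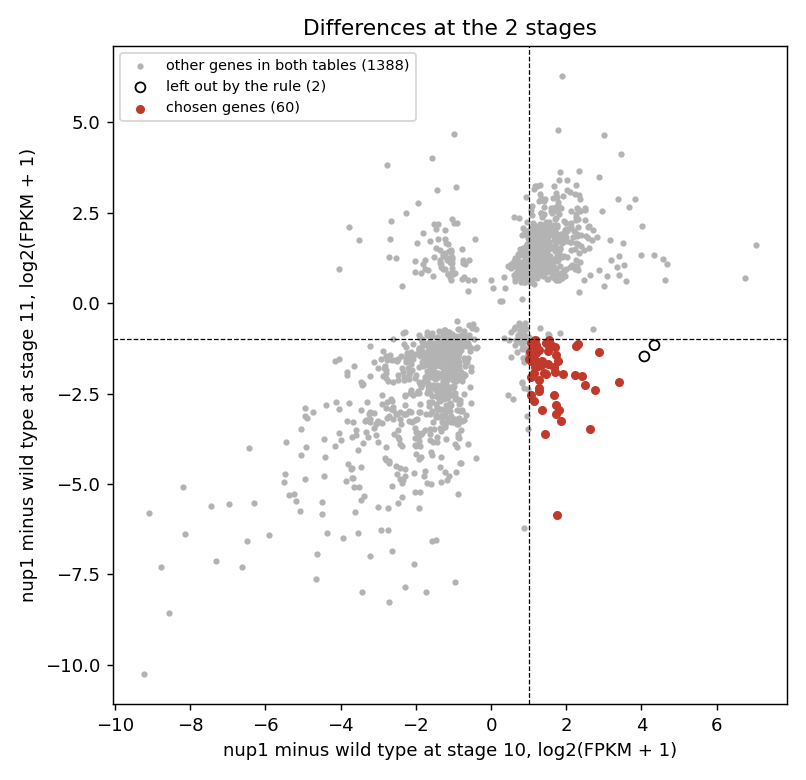
Each point is a gene listed in both tables, placed by nup1 minus wild type at stage 10 (x axis) and at stage 11 (y axis), both as differences of mean log2(FPKM + 1) over 3 libraries. The 60 chosen genes lie right of 1 and below -1 (dashed lines), and both open circles, the genes that the rule leaves out, lie beyond 4 on the x axis.

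At the threshold the choice was narrow. The members nearest to it were LOC_Os10g42780, with differences of 1.01 and -1.54 at stages 10 and 11, LOC_Os04g34240 with 1.17 and -1.02, and LOC_Os03g19220 with 1.53 and -1.02. Just outside lay LOC_Os01g52880 with 0.996 and -1.05, LOC_Os02g36890 with 1.22 and -0.99, and LOC_Os08g40180 with 1.55 and -0.99. The left-out genes had larger stage 10 differences than any member, at 4.08 for LOC_Os08g03682 and 4.35 for LOC_Os09g32020, and -1.47 and -1.16 at stage 11.

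The libraries of the genotypes were apart in nearly every member. At stage 10 each nup1 library lay above each wild-type library in 58 of the 60 genes, against 39.9% of the 1450 genes. At stage 11 each nup1 library lay below each wild-type library in 59 genes, against 57.1% of the 1450. Both held in 58 genes, against 7.31% of the 1450. The rule used the same contrast, so nothing is read from these counts. The authors' deposited tables gave each of the 60 the direction higher at stage 10 and lower at stage 11, a pair of directions carried by 8.21% of the 1450 genes.

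The exceptions were LOC_Os05g46845 and LOC_Os02g10520. LOC_Os05g46845 had 63.0, 45.6 and 44.9 FPKM in nup1 and 8.91, 15.8 and 56.8 FPKM in wild type at stage 10. At stage 11 it had 63.7, 49.2 and 4.23 FPKM in nup1 and 51.1, 198 and 216 FPKM in wild type. Its groups overlapped at both stages, and its replicates were wide apart in each group but nup1 at stage 10. The stage 10 difference of 1.28 ± 0.77 (SE, n = 3 each) was 0.73 without wild-type replicate 1 and 2.00 without wild-type replicate 3, and the stage 11 difference of -2.35 ± 1.33 was -1.20 without nup1 replicate 3. LOC_Os02g10520 had 291, 137 and 193 FPKM in nup1 and 71.0, 148 and 79.0 FPKM in wild type at stage 10, where nup1 replicate 2 lay below wild-type replicate 2.

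The genes spanned a wide range of abundance. The highest of a gene's 4 group means ran from 2.75 FPKM to 273 FPKM with a median of 24.1, where the median over the 1450 genes was 21.2. It was 10 FPKM or more in 43 genes and 100 FPKM or more in 10. The highest mean was that of nup1 at stage 10 in 45 genes and that of wild type at stage 11 in 15. It was never that of nup1 at stage 11 or of wild type at stage 10 (0 of 60 each), which the rule all but ensures. At stage 11, the nup1 mean was under 1 FPKM in 19 genes, and 8 genes were listed at 0 in at least 1 nup1 library.

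**Figure D2:**
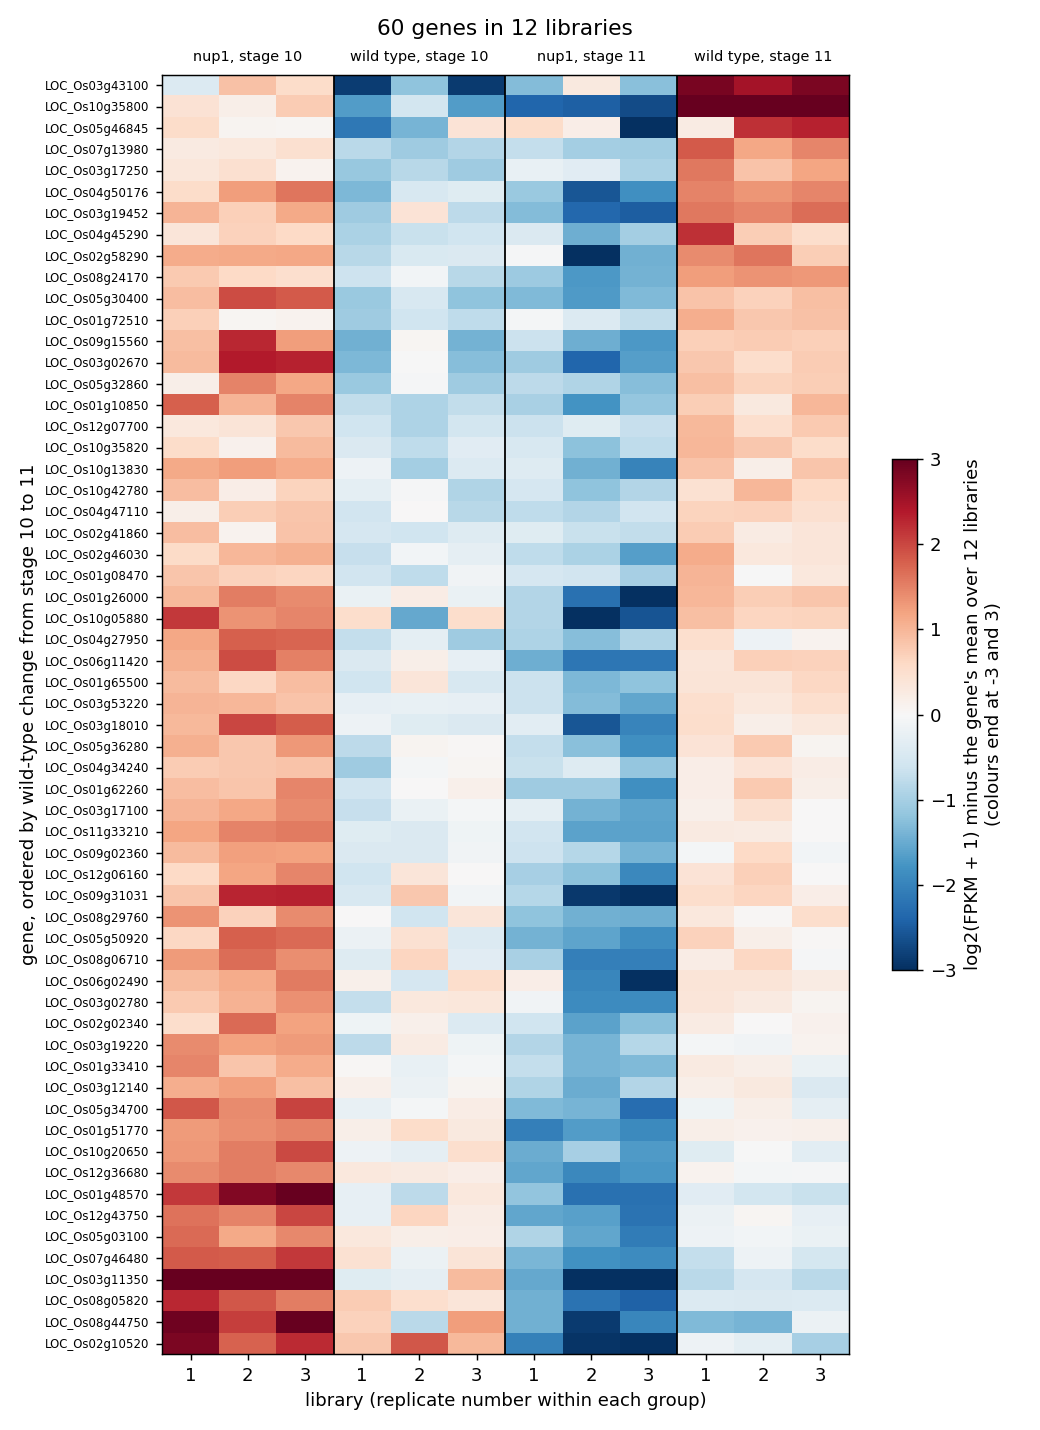
Colours give log2(FPKM + 1) minus the gene's mean over the 12 libraries for the 60 genes (rows), in 3 libraries of each group (columns), ordered down the page by the wild-type change from stage 10 to stage 11. The nup1 columns are mostly red at stage 10 and blue at stage 11, the wild-type columns at stage 11 are darkest red in the top rows, and nup1 replicate 1 at stage 11 is paler than replicates 2 and 3 in most rows.

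The next comparison set stage 11 against stage 10 within each genotype. The tables may have been normalized separately, and no test was run across them. The rule forces the nup1 change to lie at least 2 below the wild-type change on the log2 scale. It leaves room for a positive nup1 change only where wild type was over 2 higher at stage 11. Of the 1450 genes, 18.6% were higher in wild type by even 1. The sign in nup1 thus nearly follows from the rule and is a description only. Stage 11 minus stage 10 was negative in nup1 in all 60 genes, from -6.39 to -0.70 with a median of -2.56. It was at most -1 in 58 of them, against 20.2% of the 1450. In wild type it was positive in 47 genes and negative in 13, from -1.70 to 5.03 with a median of 0.67. The wild-type change was positive in 743 of the 1450. Over the 1450 genes the medians were -0.21 in nup1 and 0.04 in wild type. In wild type, 21 of the 60 genes were higher at stage 11 by 1 or more, 37 were within 1, and 2 were lower by 1 or more. These were 35.0%, 61.7% and 3.33% of the 60, against 18.6%, 66.9% and 14.5% of the 1450.

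**Figure D3:**
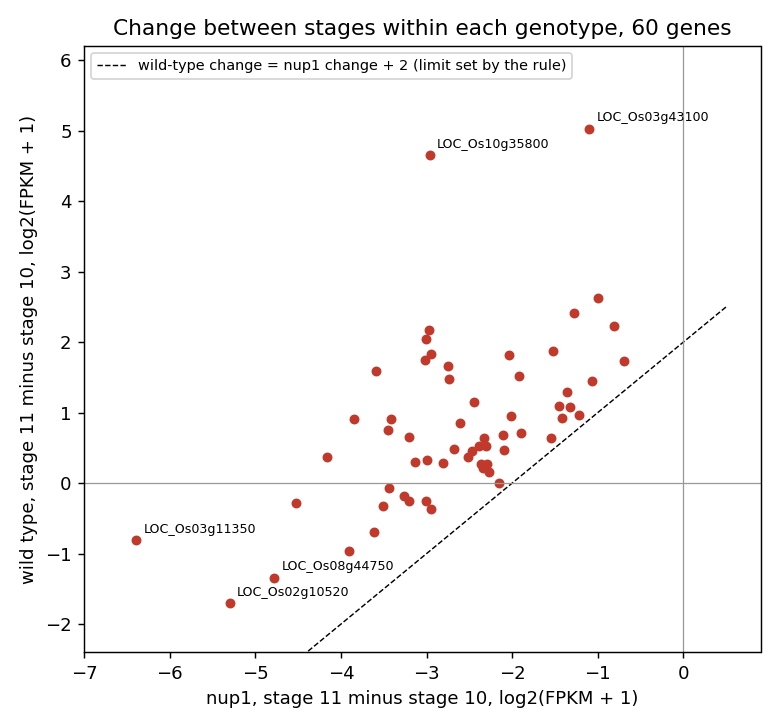
Each point is one of the 60 genes, placed by stage 11 minus stage 10 in nup1 (x axis) and in wild type (y axis), as differences of mean log2(FPKM + 1). Every point lies left of 0 on the x axis and above the dashed limit that the rule sets, while on the y axis 47 points lie above 0 and 13 below.

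In the 21 genes that were higher by 1 or more in wild type at stage 11, the nup1 level at stage 10 was mostly near the later wild-type level. The nup1 mean at stage 10 lay below the wild-type mean at stage 11 in 15 of the 21 and above it in 6, with a median difference of -0.25 on the log2 scale. It lay below by 1 or more in 4 genes and above by 1 or more in 1. Choosing these 21 by their wild-type rise favours a negative sign, so these counts are a description only. LOC_Os03g43100 had the largest wild-type change of the 60. At stage 10 it had 15.0, 37.6 and 29.7 FPKM in nup1 and 1.95, 8.21 and 1.88 FPKM in wild type. At stage 11 it had 7.50, 24.7 and 7.85 FPKM in nup1 and 150.1, 119 and 149 FPKM in wild type. The groups did not overlap at either stage, and wild type at stage 11 stood far above the rest. The differences between genotypes were 2.64 ± 0.67 at stage 10 and -3.49 ± 0.53 at stage 11 (log2, SE), and the stage changes were -1.10 in nup1 and 5.03 in wild type.

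LOC_Os10g35800 had the lowest stage 11 difference of the 60. At stage 10 it had 7.63, 6.24 and 9.96 FPKM in nup1 and 1.02, 3.38 and 1.02 FPKM in wild type. At stage 11 the nup1 libraries had 0.23, 0.18 and 8.27e-08 FPKM, and the wild-type libraries 71.1, 56.7 and 66.7 FPKM. Each nup1 library was under 1 FPKM at stage 11, while wild type was at its highest, a difference of -5.85 ± 0.13 (log2, SE). LOC_Os10g35820, its nearest neighbour by locus number among the members, averaged 48.8 ± 14.2 FPKM in nup1 and 22.5 ± 3.46 in wild type at stage 10, and 18.2 ± 4.84 FPKM in nup1 and 56.6 ± 8.52 in wild type at stage 11 (SD, n = 3 each). It is named for its position.

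LOC_Os03g19452 and LOC_Os04g50176 followed the same order of groups. LOC_Os03g19452 had 52.8, 42.8 and 57.2 FPKM in nup1 and 11.7, 34.5 and 14.3 FPKM in wild type at stage 10, and 9.68, 4.19 and 3.74 FPKM in nup1 and 78.6, 71.9 and 83.1 FPKM in wild type at stage 11. LOC_Os04g50176 had 9.25, 15.7 and 20.5 FPKM in nup1 and 1.74, 4.05 and 4.45 FPKM in wild type at stage 10, and 2.27, 0.187 and 0.975 FPKM in nup1 and 18.7, 16.7 and 18.5 FPKM in wild type at stage 11. In both genes the nup1 mean at stage 10 lay within 1 of the wild-type mean at stage 11, at -0.61 and -0.29 on the log2 scale. LOC_Os02g58290 had a like course, with 32.6 ± 0.42 FPKM in nup1 and 9.28 ± 1.47 in wild type at stage 10. Its stage 11 difference of -3.06 ± 1.17 leaned on nup1 replicate 2, listed at 0, and was -1.99 without it.

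Further members also had wild type at stage 11 as their highest group, and 4 of them were chosen after their values were seen, for their place near the top of the wild-type change. LOC_Os03g17250 had the lowest wild-type mean at stage 10 of the 60, with 2.91, 3.36 and 2.32 FPKM in nup1 and 0.404, 0.748 and 0.493 FPKM in wild type. At the later stage its libraries had 1.64, 1.44 and 0.611 FPKM in nup1 and 8.37, 4.60 and 6.10 FPKM in wild type. LOC_Os07g13980 averaged 11.9 ± 1.02 FPKM in nup1 and 4.33 ± 0.485 in wild type at stage 10, and 4.31 ± 0.722 FPKM in nup1 and 27.7 ± 6.99 in wild type at stage 11. In LOC_Os03g17250 nup1 at stage 11 lay above wild type at stage 10, by 0.50 on the log2 scale. This was so in 5 of the 60 genes, with the largest value, 1.54, in LOC_Os03g43100. LOC_Os04g45290 averaged 3.51 ± 1.64 FPKM in nup1 and 20.5 ± 14.5 in wild type at stage 11, where wild-type replicate 1 stood above replicates 2 and 3. LOC_Os08g24170 averaged 0.474 ± 0.316 FPKM in nup1 and 8.51 ± 0.313 in wild type at that stage (SD, n = 3 each).

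The other 6 of the 21 had a higher mean log2 level in nup1 at stage 10 than in wild type at either stage. LOC_Os03g02670 had 13.2, 37.2 and 35.3 FPKM in nup1 and 1.85, 6.25 and 2.00 FPKM in wild type at stage 10. Its stage 11 libraries had 2.45, 0.399 and 1.30 FPKM in nup1 and 11.9, 9.44 and 11.4 FPKM in wild type. Every nup1 library at stage 10 exceeded every wild-type library of both stages, though nup1 replicate 1 was well under replicates 2 and 3. LOC_Os05g30400 had 82.6, 169.8 and 156 FPKM in nup1 and 19.3, 30.7 and 18.2 FPKM in wild type at stage 10, and 16.6, 12.5 and 16.5 FPKM in nup1 and 78.7, 69.7 and 81.6 FPKM in wild type at stage 11. Its differences, 2.50 ± 0.40 and -2.27 ± 0.14 (log2, SE), were close in size and opposite in sign. LOC_Os01g10850 averaged 10.5 ± 3.02 FPKM in nup1 and 1.39 ± 0.178 in wild type at stage 10, and 0.727 ± 0.466 FPKM in nup1 and 5.76 ± 1.61 in wild type at stage 11 (SD, n = 3 each).

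LOC_Os09g15560, LOC_Os05g32860 and LOC_Os10g13830 were the rest of these 6. LOC_Os09g15560 had 5.19, 14.9 and 6.80 FPKM in nup1 and 0.21, 2.43 and 0.234 FPKM in wild type at stage 10, with wild-type replicate 2 well above the other two. LOC_Os05g32860 had 15.1, 39.3 and 31.1 FPKM in nup1 and 5.57, 13.0 and 5.85 FPKM in wild type at stage 10, again with wild-type replicate 2 the highest of its group. LOC_Os10g13830 averaged 9.93 ± 0.508 FPKM in nup1 and 2.48 ± 0.993 in wild type. At stage 11, LOC_Os09g15560 had 1.11, 0.194 and 0 FPKM in nup1 and 4.43, 4.58 and 4.36 FPKM in wild type, and the differences of LOC_Os05g32860 and LOC_Os10g13830 were -1.76 ± 0.16 and -1.90 ± 0.52 (log2, SE).

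**Figure D4:**
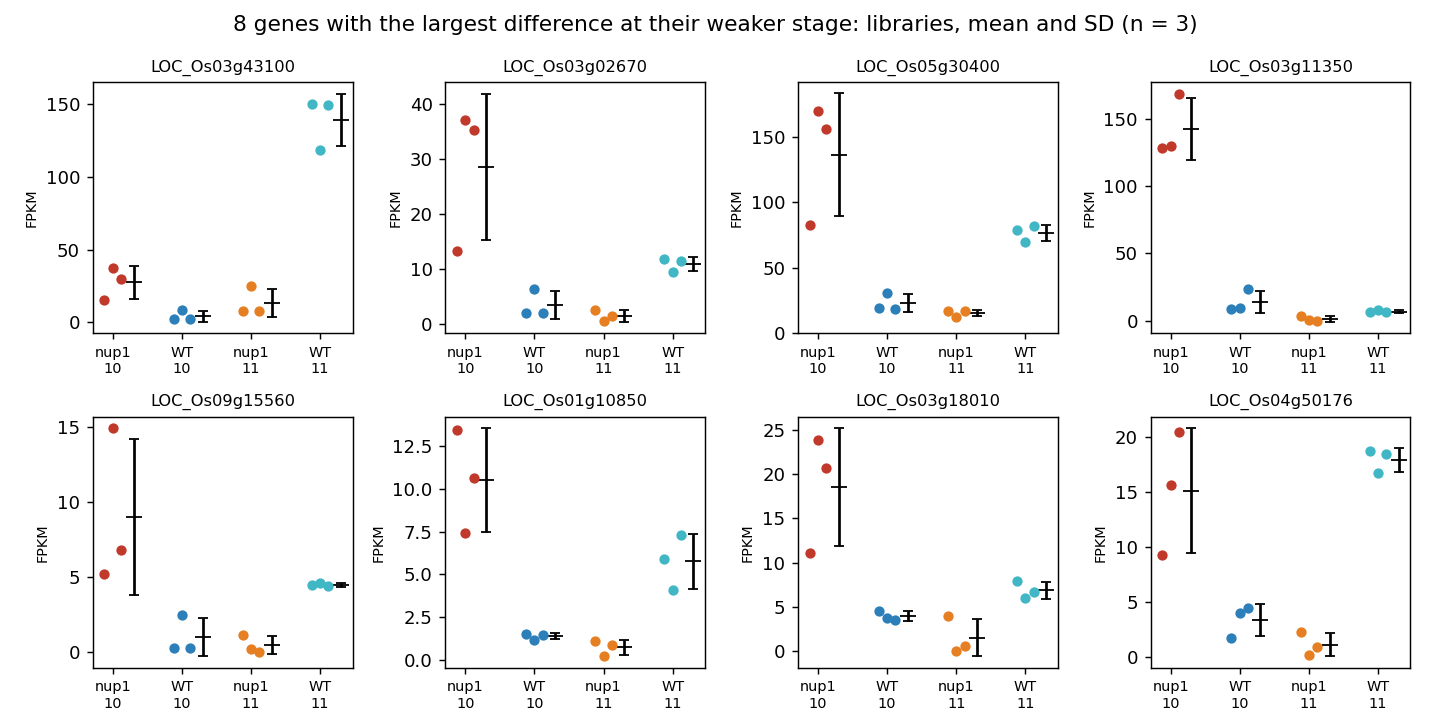
FPKM (y axis, linear) of 8 genes in the 3 libraries of each group (points), with mean and SD (n = 3) as bars beside them, for nup1 and wild type at stages 10 and 11. In each panel the nup1 points lie above wild type at stage 10 and below it at stage 11, and the wild-type mean at stage 11 ranges between 4.45 FPKM in LOC_Os09g15560 and 139 FPKM in LOC_Os03g43100.

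In the 37 genes that stayed within 1 of their earlier level in wild type, the pattern was a peak in nup1 at stage 10 followed by a low level. The nup1 mean at stage 10 lay above the wild-type mean at stage 11 in all 37, with a median difference of 1.05 on the log2 scale, and by 1 or more in 20. The nup1 mean at stage 11 lay below the wild-type mean at stage 10 in all 37, by 1 or more in 26. With wild type this level, the rule fixes both signs, so these counts are a description only. The median change in nup1, stage 11 minus stage 10, was -2.68.

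LOC_Os03g11350 was the extreme of this set, with the largest stage 10 difference of the 60. At stage 10 it had 129, 129.7 and 169 FPKM in nup1 and 8.81, 9.41 and 23.3 FPKM in wild type. At stage 11 it had 3.37, 0.109 and 0 FPKM in nup1 and 6.18, 7.91 and 6.22 FPKM in wild type. A transcript above 100 FPKM in every nup1 library at stage 10 was at 0.109 and 0 FPKM in nup1 replicates 2 and 3 at stage 11. The differences were 3.39 ± 0.44 and -2.19 ± 0.69 (log2, SE), and the stage changes -6.39 in nup1 and -0.81 in wild type. LOC_Os01g48570, named after its values were seen, resembled it, with 29.2 ± 8.92 FPKM in nup1 and 3.17 ± 1.54 in wild type at stage 10, and 0.35 ± 0.607 FPKM in nup1 and 2.28 ± 0.396 in wild type at stage 11.

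LOC_Os09g31031 was the most abundant member. Its libraries had 125, 345 and 349.7 FPKM in nup1 and 49.4, 123 and 65.5 FPKM in wild type at stage 10. At stage 11 they had 38.1, 8.44 and 6.10 FPKM in nup1 and 100.3, 108 and 80.0 FPKM in wild type. Nup1 replicate 1 and wild-type replicate 2 all but met at stage 10, and nup1 replicate 1 was the highest of its group at stage 11. LOC_Os01g26000 had 155, 226 and 209.5 FPKM in nup1 and 67.4, 91.5 and 67.9 FPKM in wild type at stage 10, and 41.9, 15.7 and 7.53 FPKM in nup1 and 157, 130.3 and 139 FPKM in wild type at stage 11. Here too nup1 replicate 1 was the least low at stage 11, and the groups did not overlap.

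Other abundant members of the level set were LOC_Os05g34700, LOC_Os12g43750, LOC_Os03g17100 and LOC_Os03g19220. LOC_Os05g34700 had 108, 79.5 and 122 FPKM in nup1 and 24.8, 28.0 and 34.2 FPKM in wild type at stage 10, and 10.9, 10.4 and 5.16 FPKM in nup1 and 26.3, 32.7 and 24.0 FPKM in wild type at stage 11. Its wild-type level was nearly the same at both stages, a change of -0.07. LOC_Os12g43750 averaged 76.0 ± 14.7 FPKM in nup1 and 26.6 ± 8.49 in wild type at stage 10, and 5.79 ± 1.58 FPKM in nup1 and 20.5 ± 2.26 in wild type at stage 11. LOC_Os03g17100 averaged 139 ± 19.6 FPKM in nup1 and 48.5 ± 11.0 in wild type at stage 10, and LOC_Os03g19220 139.6 ± 9.74 FPKM in nup1 and 49.7 ± 17.1 in wild type. Both were about 2-fold or more below wild type at stage 11, with 29.7 ± 16.2 against 69.9 ± 12.3 FPKM and 27.1 ± 5.70 against 55.2 ± 4.32 FPKM, nup1 against wild type (SD, n = 3 each).

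Scarcer members of the level set were listed at or near 0 in nup1 at stage 11. At that stage LOC_Os06g11420 had 0.639, 0 and 0 FPKM in nup1 and 4.83, 6.41 and 6.27 FPKM in wild type. LOC_Os08g06710 had 1.09, 0 and 0 FPKM in nup1 and 3.78, 5.38 and 3.03 FPKM in wild type. LOC_Os11g33210 had 1.05, 0 and 0 FPKM in nup1 and 2.67, 2.64 and 2.06 FPKM in wild type. Each was listed at 0 in nup1 replicates 2 and 3 and above 0 in replicate 1. At stage 10 these genes had averaged 12.3 ± 3.97, 10.3 ± 1.63 and 7.17 ± 1.11 FPKM in nup1, and 3.10 ± 0.92, 3.27 ± 1.85 and 1.46 ± 0.275 FPKM in wild type (SD, n = 3 each). An exact 0 in FPKM can be a failed estimate, so it is given as a listed value and no fold is drawn from it. In LOC_Os03g18010 and LOC_Os10g05880 nup1 replicate 1 was again the highest, with 3.96, 0.0466 and 0.57 FPKM and 3.88, 0 and 0.487 FPKM at stage 11. LOC_Os10g05880 had 37.8, 21.9 and 23.6 FPKM in nup1 and 11.9, 2.09 and 11.8 FPKM in wild type at stage 10, and its difference of 1.80 ± 0.73 was 1.12 without wild-type replicate 2.

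At the lower end of the level set, LOC_Os08g05820 and LOC_Os07g46480, named after their values were seen, had 2 of the 3 lowest wild-type changes of the set. LOC_Os08g05820 had 59.3, 45.0 and 35.7 FPKM in nup1 and 20.5, 16.7 and 15.2 FPKM in wild type at stage 10, and 3.64, 1.73 and 1.36 FPKM in nup1 and 8.48, 8.25 and 8.53 FPKM in wild type at stage 11. LOC_Os07g46480 had 13.5, 13.1 and 16.5 FPKM in nup1 and 4.54, 2.59 and 4.30 FPKM in wild type at stage 10, and 0.56, 0.15 and 0.0943 FPKM in nup1 and 1.47, 2.62 and 1.78 FPKM in wild type at stage 11. In both, nup1 at stage 10 was the highest group, and the changes were -0.96 and -0.69 in wild type.

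Only LOC_Os02g10520 and LOC_Os08g44750 were lower by 1 or more in wild type at stage 11 than at stage 10. LOC_Os02g10520 had 8.99, 4.29 and 1.42 FPKM in nup1 and 36.0, 32.2 and 19.5 FPKM in wild type at stage 11, so that both genotypes were lower at the later stage, by changes of -5.30 in nup1 and -1.70 in wild type. LOC_Os08g44750 had 59.9, 33.5 and 66.7 FPKM in nup1 and 12.2, 3.62 and 18.2 FPKM in wild type at stage 10. At stage 11 it had 1.97, 0.106 and 1.10 FPKM in nup1 and 2.25, 2.07 and 6.17 FPKM in wild type, where nup1 replicate 1 came close to the lowest wild-type library.

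Single libraries stood apart within groups over many of the 60 genes. At stage 11 nup1 replicate 1 was the highest of its group in 51 of the 60 genes (85.0%), against 396 of the 767 genes whose stage 11 difference was -1 or less (51.6%) and 724 of all 1450 (49.9%). It was over 2-fold above both other nup1 libraries in 25 of the 60 (41.7%), against 255 of the 1450 (17.6%). The median of the 60 genes in log2(FPKM + 1) was 1.81 in that library, against 1.12 and 1.10 in nup1 replicates 2 and 3. Without nup1 replicate 1 at stage 11, 64 genes met the rule, among them all 60.

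At stage 10, wild-type replicate 2 was the highest of its group in 28 of the 60 genes (46.7%), against 83 of the 491 genes whose stage 10 difference was 1 or more (16.9%), but 817 of all 1450 (56.3%), so the share in the 60 lay between these. Nup1 replicate 3 was the highest of its group in 27 of the 60 (45.0%), against 145 of those 491 (29.5%) and 358 of the 1450 (24.7%). These orders within a group were not tested. Without wild-type replicate 2 at stage 10, 60 genes met the rule, of which 56 were the same.

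**Figure D5:**
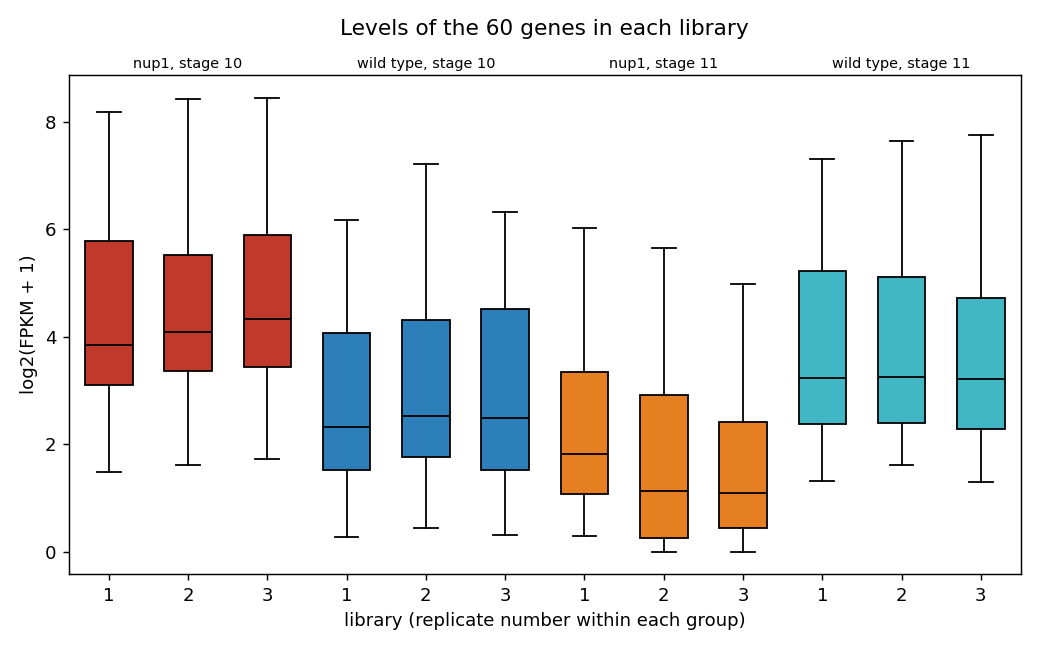
Boxes give the median and quartiles, and whiskers the lowest and highest value, of log2(FPKM + 1) over the 60 genes in each of the 12 libraries. The nup1 medians lie at 3.84 to 4.34 at stage 10 and 1.10 to 1.81 at stage 11, and the wild-type medians at 2.32 to 2.52 at stage 10 and 3.22 to 3.25 at stage 11.

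By the chromosome written in the locus identifier, the 60 genes lay on all 12 rice chromosomes, from 1 gene on chromosome 11 to 11 genes on chromosome 3 and 9 on chromosome 1. Chromosome 3 held 18.3% of the 60 genes and 11.5% of the 1450. Few members were close by number. LOC_Os10g35800 and LOC_Os10g35820 were 20 apart in locus number, and LOC_Os03g02670 and LOC_Os03g02780 were 110 apart. LOC_Os03g17100 and LOC_Os03g17250 were 150 apart, and the 1 other pair within 250, LOC_Os03g19220 and LOC_Os03g19452, was 232 apart.

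None of the 41 loci in the 7 lists of known anther and other tissue genes, whose symbols were paired with loci from recall, was among the 60. Of 11 loci for sporopollenin synthesis and export, 11 were listed at stage 10 and 4 at both stages. Of these 4, only CYP703A3, a fatty acid hydroxylase, and TKPR1, a reductase, met the conditions, and these are LOC_Os08g03682 and LOC_Os09g32020, which the rule leaves out. Of 7 loci of the tapetum, Ubisch bodies and cuticle, 5 were listed at both stages and 0 met the conditions. The lists of tapetum regulators, tapetal cell death and pollen sugar supply had 1 of 8, 2 of 3 and 2 of 4 loci listed at both stages, again with 0 that met them.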

How the data were processed

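Messenger RNA from rice anthers was sequenced in 12 libraries, 3 for each genotype and stage. Per the series design text, reads were mapped with HISAT2 to the MSU rice genome, release 7, and the authors used Cufflinks for FPKM values and calls at an FDR under 0.01 and a fold above 2; versions: not given in the sources used here. Deposited by the authors was 1 table of FPKM per stage, which lists called genes only (3453 at stage 10 and 5084 at stage 11), with a direction for each gene.

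Groups were taken from the sample titles. Means of log2(FPKM + 1), their differences and standard errors were computed with Python 3.11.15, numpy 2.4.6 and pandas 2.3.3, drawn with matplotlib 3.10.9, and the scripts were tested on simulated data. The rule used both genotype contrasts, so no test was run. The genes, lists and loci were chosen with earlier results of these data known. Genes were named if among the 20 with the largest difference at their weaker stage, the 10 with the highest group mean, or the 3 nearest the threshold on each side; others were named after their values were seen, for their position or as exceptions. Role classes and promoter motifs were planned, but the reference gene table (RefSeq, ASM3414082v1) was not used for them, since none of the 60 locus identifiers (0 of 60) matched it.

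The files give no counts, so the depth in fragments is unknown. For genes at low values (under 0.5 FPKM), ratios between libraries of a group were set against ratios of whole numbers up to 4. At the best of many trial shifts between the libraries, 16.4% to 38.7% lay on these steps. At the median shift it was at most 4.55%. These shares were too few to recover reads. The sum of FPKM over listed genes was 121242 to 137071 in nup1 and 142003 to 182631 in wild type at stage 10, and 125358 to 147954 in nup1 and 209625 to 227419 in wild type at stage 11. Alternatives were another pseudocount, filter, scaling, threshold and summary, and each library left out.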

Additional observations from a re-analysis of the deposited data

Results flagged for a closer look

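In 58 of the 60 genes the nup1 libraries all lay above the wild-type libraries at stage 10 and all below them at stage 11. This held in 7.31% of the 1450 genes. The rule itself sets opposite signs of the genotype difference at the stages in all 60, so nothing is read from this count. The difference between the stages was not tested. Groups of 3 libraries are too small for the outlier test, so no library was singled out by it.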

How the results depend on the processing

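The number of genes that met the rule depended on the scale. Of the 60 genes, 58 did not overlap at both stages, against 7.31% of the 1450. In 47 genes wild type was higher and nup1 lower at stage 11 than at stage 10, against 27.2% of the 1450. The rule sets the nup1 change at least 2 below the wild-type change, so this count is a description only. With a pseudocount of 0.1 FPKM these 3 counts were 102, 93 and 85, and with 5 FPKM they were 21, 19 and 17. Centring libraries on their medians gave 31, 29 and 26, and quantile normalization 35, 32 and 26. A difference of 1.5 gave 17, 17 and 14, and one of 0.5 gave 114, 103 and 93. Leaving out 1 library at a time gave 52 to 65, 52 to 63 and 41 to 52, and 38 of the 60 genes met the rule in all 12 of these runs. A filter at 1 FPKM, medians and ratios of mean FPKM moved each count by under 1.5 times. Over all genes of a stage's table, the library medians that centring removes differed by 0.20 at stage 10 and -0.45 at stage 11 (log2, nup1 minus wild type). Of 648 differences of named genes recomputed, 81 moved by more than the replicate spread and 0 reversed. The cause was not tested. No paired analysis was possible because the reported values are counts and differences with no test, which leaves no fit to put a block into. The deviation of each stage 10 library was taken from the mean of the other 2 libraries of its group. For same-numbered nup1 and wild-type libraries, these deviations correlated across the 1450 genes with r = 0.0648, 0.19 and 0.088 for replicates 1, 2 and 3. Across the 60 genes r was 0.287, 0.474 and 0.0807. Stage 11 libraries were not compared in this way, and the standard errors given treat all libraries as unpaired. Genes are not independent replicates. The files hold called genes only, with 3 libraries per group and unknown depth, so genes that missed the authors' thresholds at either stage were not analysed here, and values near 0 FPKM are the least certain.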
